A study of Mus musculus with 27 samples.

Results

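Messenger RNA levels of 37 genes of glycolysis and of the response to low oxygen were followed through 27 libraries of mouse mixed glia. The genes were chosen by symbol, as a list of known pathway members, with earlier results of these data known. All 37 symbols are among the 54532 annotated genes, and all 37 had enough counts to test in both experiments. Glycolysis turns glucose into pyruvate, which is either burned in mitochondria or reduced to lactate and exported. Hypoxia-inducible factor 1 (HIF-1) is a transcription factor whose alpha subunit is hydroxylated by prolyl hydroxylases and destroyed when oxygen is present, and which is also raised by inflammatory signals in cells of the macrophage lineage. Among its known targets are glucose transporters, most glycolytic enzymes, lactate export, the kinases that shut off pyruvate dehydrogenase, and genes of vessel growth and mitophagy.

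The cultures came from cortex of C57BL/6 neonates of postnatal day 3 to 6, were kept for 14 days in vitro and were then treated for 24 h. Experiment 1 held untreated glia and glia given 100 ng/mL lipopolysaccharide (LPS, a bacterial cell wall product sensed by toll-like receptor signalling), LPS with 50 nM bryostatin-1, LPS with 20 ng/mL interferon gamma (IFN-gamma), and all 3 agents together. Experiment 2 held its own untreated glia and glia given 50 nM bryostatin-1, 20 ng/mL interleukin 4 (IL-4), or both. Bryostatin-1, a lactone of marine origin, acts on protein kinase C through its diacylglycerol-binding domains. Each of the 9 groups had 3 libraries, and n = 3 holds for every mean below. The labels do not say whether replicates were separate cultures or animals, so the p-values reflect only how far these libraries vary, and that variation may be technical. No group was kept at low oxygen, per the labels, and neither protein, lactate nor oxygen use was measured in the files used here. A mixed culture averages over its cell types, so fewer cells of a type and less RNA per cell cannot be told apart.

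Total counts ran from 17230058 to 28687281 per library. The libraries labelled untreated replicate 1 stood apart in both experiments. In experiment 1 that library correlated with the other untreated libraries at r = 0.9635 and 0.9644 over log2 CPM, against 0.9919 between those 2, and in experiment 2 at 0.9575 and 0.949 against 0.9899. Members showed the split as well. Hk2 was at 65.7, 27.9 and 29.5 CPM in untreated replicates 1, 2 and 3 of experiment 1, and at 27.8, 69.3 and 73.3 CPM in those of experiment 2. Epas1 was at 221, 67.4 and 81.2 CPM and at 63.3, 203 and 224 CPM in the same order. For both genes, replicate 1 of each experiment was thus near replicates 2 and 3 of the other experiment. The labels were kept, and log2 fold changes of single genes against an untreated group are also given without the library labelled replicate 1, except that of Aldoc with bryostatin alone. Bryostatin replicate 2 correlated with its group at 0.9706 and 0.9699, against 0.9908 between the other 2. Astrocyte markers were abundant in every library, and microglial ones were lower. The summed level of 12 astrocyte markers was 12330 to 15437 CPM in untreated glia of experiment 1, 9773 to 10281 CPM with LPS and 7279 to 7787 CPM with LPS and IFN-gamma. That of 14 markers of microglia and macrophages was 2258 to 2625 CPM, 1806 to 1928 CPM and 1459 to 1650 CPM, and that of 8 markers of meningeal fibroblasts was 1497 to 3429 CPM, 5235 to 6245 CPM and 3021 to 5194 CPM. With LPS, 6 of 12 astrocyte and 9 of 14 microglial markers fell while 2 and 3 rose, and 5 of 7 tested fibroblast markers rose. The summed level of 12 markers of the oligodendrocyte lineage was 718 to 1013 CPM, 747 to 773 CPM and 383 to 430 CPM in the same groups, and that of 6 ependymal markers 227 to 647 CPM, 396 to 420 CPM and 272 to 307 CPM. Of 11 tested markers of the oligodendrocyte lineage, 1 rose and 1 fell with LPS and 6 fell with LPS and IFN-gamma. Of the 6 ependymal markers 3 and 5 fell. Over all genes tested, 19.5% rose and 18.8% fell with LPS, and 29.5% and 28.6% with LPS and IFN-gamma. Of the tested oligodendrocyte markers, 18.2% changed with LPS and 54.5% with LPS and IFN-gamma, below the 38.4% and 58.1% of all genes. Without untreated replicate 1, 7 astrocyte, 9 microglial, 6 oligodendrocyte and 6 ependymal markers fell with LPS, and 9, 10, 9 and 6 with LPS and IFN-gamma. Over all genes, 3470 and 4915 of 16417 fell there. The part of cell makeup in the results below was not tested.

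Promoters of 5 members on which the results turn are printed here. Slc2a1 rose when IFN-gamma was added to LPS and was not called with LPS alone. Bnip3 rose with LPS and again when IFN-gamma was added to it, and Adm rose with LPS. No group was given IFN-gamma without LPS. Hk3 rose with LPS and, in experiment 2, with bryostatin, and Slc16a1 was lowered by bryostatin in every setting. Sequences are from RefSeq (GRCm38.p6), run 5′ to 3′ on the gene's strand, and cover up to 250 bases before the start site, less any base that an annotated exon overlaps. Capitals mark the core letters known for HIF binding, ACGTG or GCGTG, on either strand (CACGT or CACGC when read on the printed strand). The windows are Slc2a1 at chr4:119108495-119108710, plus strand, Hk3 at chr13:55021386-55021635, minus strand, Slc16a1 at chr3:104638414-104638663, plus strand, Bnip3 at chr7:138909520-138909756, minus strand, and Adm at chr7:110627407-110627656, plus strand.
Slc2a1: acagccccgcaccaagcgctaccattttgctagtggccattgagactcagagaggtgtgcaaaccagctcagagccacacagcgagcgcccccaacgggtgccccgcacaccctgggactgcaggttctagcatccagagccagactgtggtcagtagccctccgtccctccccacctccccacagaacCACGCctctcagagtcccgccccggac
Hk3: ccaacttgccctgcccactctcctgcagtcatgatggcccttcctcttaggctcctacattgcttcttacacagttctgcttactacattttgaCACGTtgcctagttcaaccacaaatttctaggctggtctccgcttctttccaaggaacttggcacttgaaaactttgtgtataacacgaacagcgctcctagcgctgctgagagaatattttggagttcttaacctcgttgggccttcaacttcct
Slc16a1: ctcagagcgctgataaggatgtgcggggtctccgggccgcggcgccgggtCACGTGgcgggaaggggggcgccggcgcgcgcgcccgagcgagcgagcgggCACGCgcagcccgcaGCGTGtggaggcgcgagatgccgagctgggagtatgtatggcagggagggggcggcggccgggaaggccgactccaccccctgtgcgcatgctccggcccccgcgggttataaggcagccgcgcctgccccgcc
Bnip3: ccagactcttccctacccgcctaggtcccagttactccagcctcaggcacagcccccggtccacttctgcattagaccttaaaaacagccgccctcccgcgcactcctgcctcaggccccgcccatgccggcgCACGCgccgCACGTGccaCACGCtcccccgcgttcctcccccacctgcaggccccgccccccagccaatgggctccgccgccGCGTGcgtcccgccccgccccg
Adm: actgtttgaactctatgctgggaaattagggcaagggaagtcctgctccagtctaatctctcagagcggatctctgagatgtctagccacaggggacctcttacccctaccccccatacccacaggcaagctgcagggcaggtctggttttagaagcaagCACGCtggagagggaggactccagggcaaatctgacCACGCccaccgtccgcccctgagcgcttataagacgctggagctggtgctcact
The Bnip3 stretch holds 5 matches and the Slc16a1 stretch 4, and each includes CACGTG, which is read on both strands and is also the E-box bound by MYC and other factors. The Adm stretch holds 2 matches, and those of Hk3 and Slc2a1 hold 1 each. Start sites were listed for 34 of the 37 members, and Slc2a3, Epas1 and Ndrg1 were not matched. Of 50 windows of 250 bases before the start, 40 (80%) held a match, against 12679 of 32851 windows of all genes (38.6%) and 9358 of 21263 windows of protein-coding genes (44%). The members' windows were also richer in CG dinucleotides, with a median of 13.5 against 6 over all windows and 10 over protein-coding ones, and both motifs contain CG. CACGTG was in 12% of the members' windows and in 6.02% of all. The list holds known HIF-1 targets by choice, and the 50 windows belong to 34 genes, with some windows overlapping. The shares are thus no test of these genes. A match is a description of letters, and binding was not measured.

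LPS changed 23 of the 37 genes at an adjusted p under 0.05 (edgeR's quasi-likelihood test, Benjamini-Hochberg adjustment over all genes). Of these, 17 rose and 6 fell. Changes are given throughout as log2 fold changes with their standard error (SE), and levels as CPM (a gene's counts per 1000000 in its library, after TMM scaling within each experiment). Over all genes tested 38.4% were called, 19.5% higher and 18.8% lower, and the median log2 fold change was 0.24 for the members and -0.01 for all genes. The genes that rose most were the lactate exporter Slc16a3, the hexokinase Hk3, the vessel-relaxing peptide Adm, the glycolytic activator Pfkfb3 and Hif1a itself. Those that fell were Pfkm, Pfkp, Aldoc, Ldhb, Pdk4 and Mxi1. Without the library labelled untreated replicate 1, 28 members were called, 22 higher and 6 lower, these included all 23, and the members' median was 0.48.

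With LPS and IFN-gamma together 35 of the 37 genes differed from untreated glia, 29 higher and 6 lower, where 58.1% of all genes were called, 29.5% higher and 28.6% lower. The median log2 fold change was 0.82, against -0.01 over all genes. Epas1 and Ankrd37 were the 2 that were not called. Leaving out untreated replicate 1, 30 were higher and 6 lower, with a median of 0.81. Against LPS alone, 24 members were called, of which 23 were higher and 1, Aldoc, lower. Here 36.0% of all genes were called, 19.2% higher and 16.8% lower, and the medians were 0.40 for the members and -0.01 for all genes. These 3 comparisons share libraries, so their values are set side by side and not counted as separate evidence. In the map of log2 fold changes, the column for IFN-gamma added to LPS is nearly all red where the column for LPS alone is mixed.

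**Figure D1:**
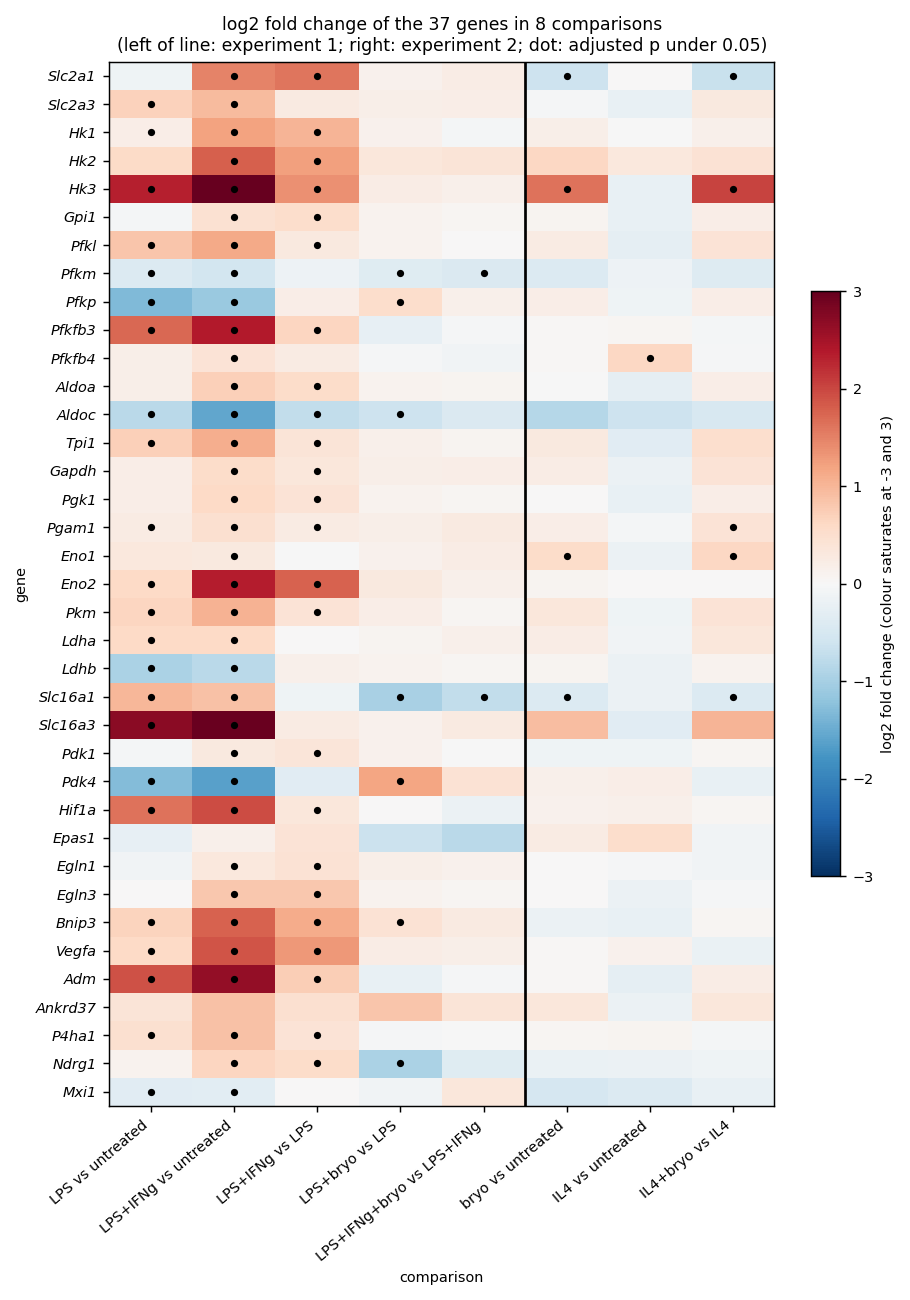
Log2 fold change of each of the 37 genes (rows, ordered by role) in 8 comparisons (columns), with the 5 of experiment 1 left of the line and the 3 of experiment 2 right of it. Red is higher and blue lower in the first-named group, colours saturate beyond a size of 3, and a dot marks an adjusted p under 0.05: dots fill most of the second column and are few in the bryostatin and IL-4 columns.

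Of the glucose transporters, Slc2a3 rose with LPS and Slc2a1 rose when IFN-gamma was added to it. Slc2a1 encodes GLUT1, the main glucose transporter of astrocytes and brain endothelium, and was at 120, 105 and 109 CPM in untreated glia, 98.9, 102 and 105 CPM with LPS and 310, 293 and 330 CPM with LPS and IFN-gamma. All 3 libraries with IFN-gamma were far above the other 6. The log2 fold change of LPS alone was -0.13 (SE 0.09, adjusted p = 0.3, -0.07 without untreated replicate 1), with a 95% interval of -0.31 to 0.05. Adding IFN-gamma to LPS raised it by 1.61 (SE 0.10, adjusted p = 2.7e-09). Slc2a3 encodes GLUT3, the high-affinity transporter of neurons and also of activated microglia, and was at 15.9, 25.5 and 22.1 CPM untreated, 34, 33.2 and 35.2 CPM with LPS and 37.1, 42.5 and 43.8 CPM with LPS and IFN-gamma. The untreated libraries were below all 6 treated ones, and the 2 treated groups did not overlap either. LPS raised it by 0.69 (SE 0.13, adjusted p = 0.00053, 0.52 without untreated replicate 1), while the further difference with IFN-gamma was 0.27 (SE 0.13, adjusted p = 0.12) and missed the threshold. Per length, Slc2a1 remained the larger of the pair, at 91.5% ± 2.27 of their summed FPKM in untreated glia, 86.1% ± 0.303 with LPS and 94% ± 0.553 with LPS and IFN-gamma.

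The 3 hexokinases, which trap glucose in the cell by phosphorylation, all rose with LPS and IFN-gamma. Hk1, the constitutive brain enzyme, was at 181, 157 and 153 CPM untreated, 197, 181 and 187 CPM with LPS and 395, 378 and 366 CPM with LPS and IFN-gamma. Its change with LPS alone was 0.20 (SE 0.07, adjusted p = 0.04, 0.28 without untreated replicate 1), a call lost in 7 of 13 other settings, and IFN-gamma on top of LPS added 1.01 (SE 0.07, adjusted p = 3e-08). Hk2 is the inducible hexokinase that binds mitochondria and is a known HIF-1 target. Its level with LPS was 61.6, 58.9 and 62.4 CPM, inside the untreated range set by the library labelled replicate 1, and 136, 150 and 143 CPM with LPS and IFN-gamma. The LPS difference was 0.58 (SE 0.23, adjusted p = 0.067, 1.09 without untreated replicate 1) and was called only without that library (adjusted p = 1.4e-09) or by DESeq2 (adjusted p = 0.033). IFN-gamma raised Hk2 above LPS by 1.23 (SE 0.23, adjusted p = 0.00092). Hk3 is the hexokinase of white blood cells, and in brain it is a gene of microglia and macrophages. It went from 13, 12.3 and 10.4 CPM untreated to 65.7, 59 and 55.9 CPM with LPS and 160, 159 and 144 CPM with both. No library of one of these groups reached the next group. The increases were 2.34 (SE 0.10, adjusted p = 1.2e-11, 2.41 without untreated replicate 1) for LPS and 1.36 (SE 0.09, adjusted p = 1.1e-08) for IFN-gamma added to LPS. Over the same groups, 9 of 14 microglial markers fell with LPS and 3 rose, where 18.8% of all genes fell and 19.5% rose.

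As shares of the hexokinases' summed FPKM, a scale that allows genes to be compared, Hk3 rose from 11.2% ± 1.4 in untreated glia to 33.6% ± 1.47 with LPS and 38% ± 0.905 with LPS and IFN-gamma. Hk1 went from 66.3% ± 5.95 to 45.4% ± 0.574 and 40.3% ± 0.889. The share of Hk2 was 30.7%, 17.7% and 19.2% in the untreated replicates and 21.7% ± 1.32 with LPS and IFN-gamma, so its groups overlapped only through the library labelled replicate 1. Shares are descriptions and were not tested. Gpi1, which turns glucose 6-phosphate into fructose 6-phosphate, did not pass with LPS, at -0.06 (SE 0.11, adjusted p = 0.71, 0.05 without untreated replicate 1), and rose by 0.52 (SE 0.11, adjusted p = 0.0018) when IFN-gamma was added.

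The messages of phosphofructokinase, the enzyme of the committed step of glycolysis, shifted in their subunit balance. The liver type subunit Pfkl was at 148, 161 and 134 CPM untreated, 259, 256 and 274 CPM with LPS and 349, 306 and 310 CPM with LPS and IFN-gamma, while the platelet type subunit Pfkp was at 753, 676 and 645 CPM, 287, 278 and 268 CPM and 339, 316 and 301 CPM. The untreated libraries were below every treated one for Pfkl and above every treated one for Pfkp. LPS raised Pfkl by 0.84 (SE 0.09, adjusted p = 1.3e-06, 0.84 without untreated replicate 1). For Pfkp the change was -1.32 (SE 0.08, adjusted p = 9.7e-10, -1.25 without untreated replicate 1). The muscle type subunit Pfkm fell to a lesser degree, with -0.40 (SE 0.08, adjusted p = 0.00078, -0.41 without untreated replicate 1), from 312 ± 4.34 CPM to 237 ± 7.45 CPM. As shares of the summed FPKM, Pfkl went from 13.2% ± 0.976 to 30.1% ± 1.08 with LPS and 35.5% ± 0.861 with both, and Pfkp from 30.8% ± 1.85 to 15.8% ± 0.508 and 17.5% ± 0.716. Pfkm held the largest share in each of these groups, at 56% ± 1.99, 54.1% ± 0.707 and 47% ± 1.35. The libraries were unstranded, and genes on the opposite strand, Senp1 at Pfkm and Pitrm1 at Pfkp, overlap and hold over 10% as many counts, so part of their reads cannot be told apart.

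Pfkfb3 makes fructose 2,6-bisphosphate, the strongest activator of phosphofructokinase, and is a known target of HIF-1 and of inflammatory signals. It was at 117, 104 and 107 CPM untreated, 360, 342 and 388 CPM with LPS and 517, 575 and 615 CPM with LPS and IFN-gamma. The 3 groups did not overlap. The increase with LPS was 1.73 (SE 0.09, adjusted p = 1.1e-10, 1.79 without untreated replicate 1), and IFN-gamma added 0.65 (SE 0.08, adjusted p = 1.7e-05). Pfkfb4, a related enzyme known from testis and tumours, was low, at 14.8 ± 2.47 CPM in untreated glia. LPS gave 0.17 (SE 0.13, adjusted p = 0.33, 0.04 without untreated replicate 1) for it, and LPS with IFN-gamma 0.42 (SE 0.13, adjusted p = 0.012, 0.29 without untreated replicate 1).

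**Figure D2:**
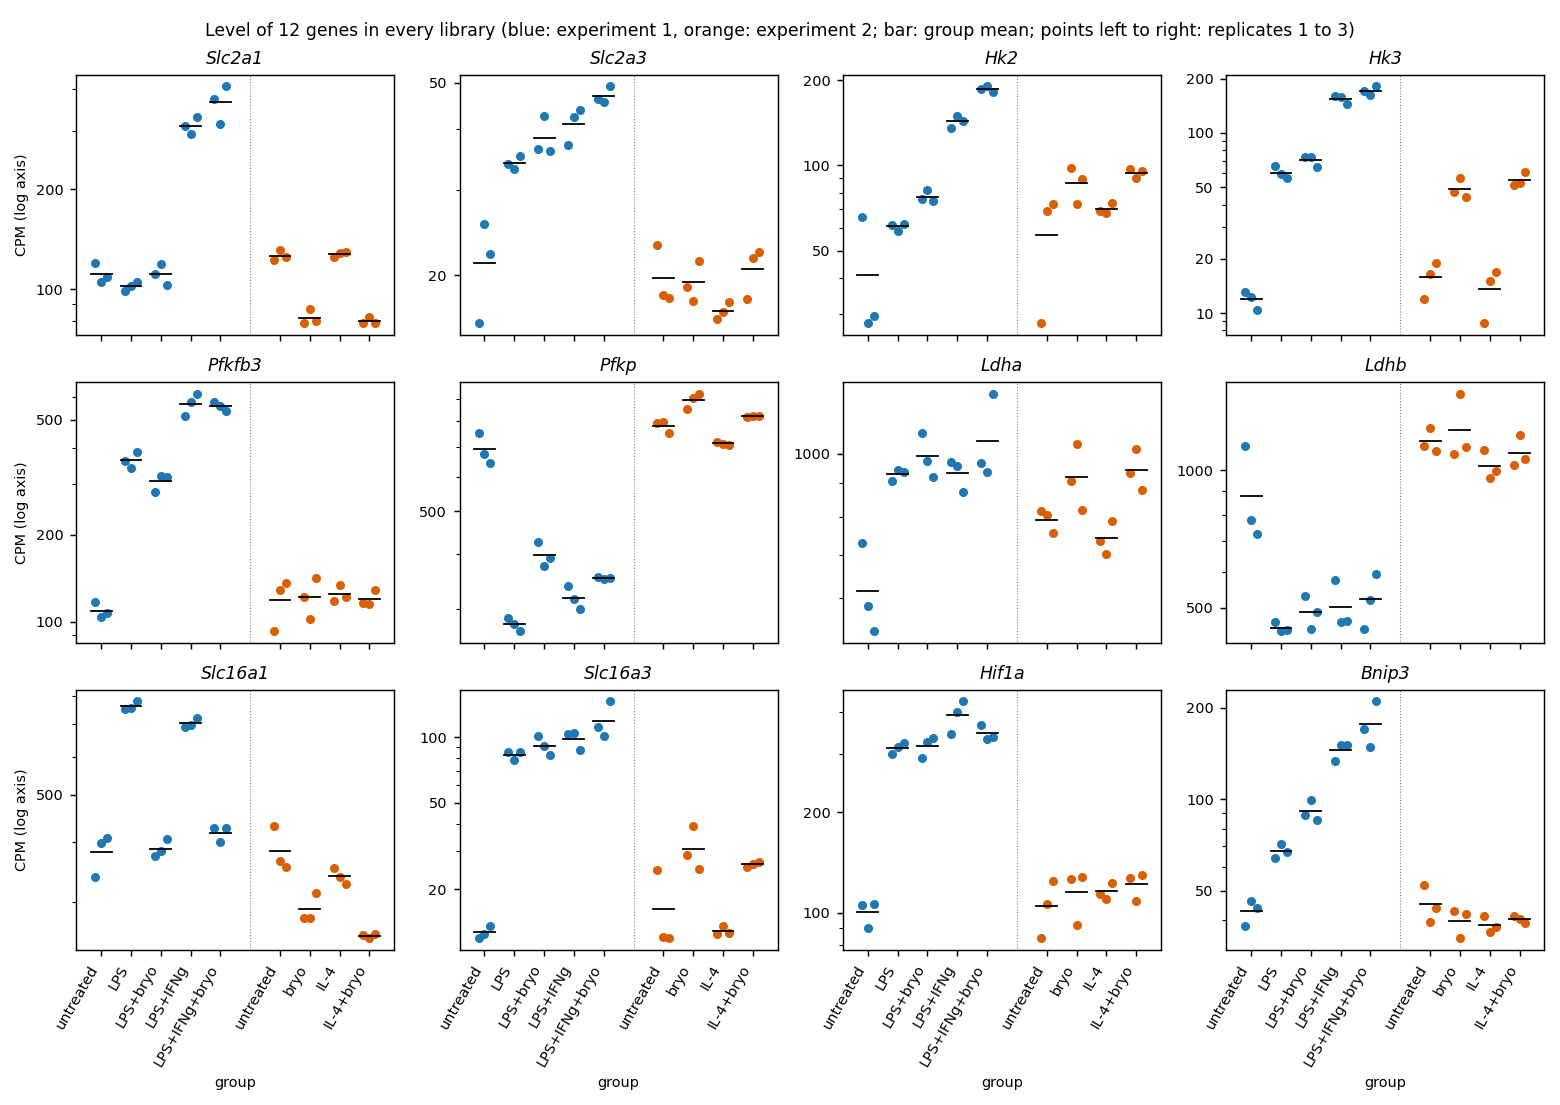
Level of 12 of the genes in each library, in CPM on a log axis, with experiment 1 in blue and experiment 2 in orange and a bar at each group mean. Slc2a1, Hk2 and Bnip3 step up where IFN-gamma was added to LPS. Slc2a3, Hif1a, Ldha, Slc16a3 and, by a smaller step, Bnip3 go up with LPS alone. The left point of each untreated group of Hk2 stands apart from the other 2.

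Of the 9 genes from aldolase to pyruvate kinase, 4 rose and 1 fell with LPS, and 8 rose and 1 fell with LPS and IFN-gamma, where 38.4% and 58.1% of all genes were called. Aldoa, the aldolase of most tissues, was at 1134, 1076 and 941 CPM untreated, 1190, 1188 and 1178 CPM with LPS and 1933, 1574 and 1673 CPM with LPS and IFN-gamma, while Aldoc, the aldolase that marks astrocytes, was at 557, 788 and 708 CPM, 412, 385 and 378 CPM and 254, 232 and 215 CPM. The untreated libraries were below every treated one for Aldoa and above every treated one for Aldoc. LPS gave 0.17 (SE 0.10, adjusted p = 0.2, 0.24 without untreated replicate 1) for Aldoa and -0.81 (SE 0.12, adjusted p = 4.4e-05, -0.93 without untreated replicate 1) for Aldoc. With IFN-gamma added to LPS, Aldoa rose by 0.54 (SE 0.10, adjusted p = 0.00067). The same step for Aldoc was -0.74 (SE 0.12, adjusted p = 0.00013). Aldoc fell from 36.7% ± 5.43 of the summed FPKM of both in untreated glia to 22.8% ± 0.725 with LPS and 10.8% ± 0.726 with LPS and IFN-gamma. Astrocyte markers moved alongside, with 9 of 12 lower and 1 higher with LPS and IFN-gamma than in untreated glia.

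Tpi1, which interconverts the triose phosphates, rose by 0.71 (SE 0.11, adjusted p = 9.2e-05, 0.75 without untreated replicate 1) with LPS. Gapdh, the dehydrogenase often used as a loading control, was at 1833, 1628 and 1451 CPM untreated, 1887, 1894 and 1894 CPM with LPS and 2605, 2257 and 2297 CPM with LPS and IFN-gamma. All libraries with IFN-gamma were above the untreated ones, and LPS alone gave 0.21 (SE 0.10, adjusted p = 0.12, 0.30 without untreated replicate 1). With LPS and IFN-gamma the rise over untreated was 0.54 (SE 0.10, adjusted p = 0.00025, 0.64 without untreated replicate 1). Pgk1, the phosphoglycerate kinase that makes ATP, was not called with LPS, at 0.19 (SE 0.08, adjusted p = 0.095, 0.19 without untreated replicate 1), and rose by 0.41 (SE 0.08, adjusted p = 0.0013) once IFN-gamma was added. For Pgam1, the mutase of the next step, LPS gave 0.24 (SE 0.08, adjusted p = 0.032, 0.26 without untreated replicate 1) and IFN-gamma on top 0.24 (SE 0.08, adjusted p = 0.037), calls that were lost in 5 of 13 and 8 of 12 other settings. Pkm, the pyruvate kinase, rose by 0.64 (SE 0.10, adjusted p = 9.8e-05, 0.76 without untreated replicate 1) with LPS and by a further 0.41 (SE 0.10, adjusted p = 0.0046) with IFN-gamma.

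Of the enolases, Eno2 rose when IFN-gamma was added to LPS and Eno1 was not called there. Eno1, the enolase of glia and most tissues, was at 1398, 1095 and 946 CPM untreated, 1402, 1403 and 1448 CPM with LPS and 1574, 1349 and 1309 CPM with LPS and IFN-gamma. The log2 fold change with IFN-gamma added to LPS was -0.01 (SE 0.12, adjusted p = 0.97). Against untreated glia, LPS and IFN-gamma gave 0.30 (SE 0.12, adjusted p = 0.049, 0.47 without untreated replicate 1), a call lost in 7 of 13 other settings. Eno2, known as neuron-specific enolase, was at 14.5, 9.73 and 9.88 CPM, 16.2, 17.1 and 18 CPM and 59.6, 49.1 and 64.8 CPM in the same groups. Every library with IFN-gamma was more than all 6 others. The step from LPS to LPS with IFN-gamma was 1.76 (SE 0.14, adjusted p = 5.5e-08). The difference between the 2 genes was not tested. Per length Eno1 stayed far above Eno2, at 269 ± 25.9 FPKM against 12.6 ± 1.76 FPKM with LPS and IFN-gamma. Of 7 tested neuron markers 5 rose and the other 2 were not called in the comparison of LPS and IFN-gamma with untreated glia, 5 rose and 2 fell without untreated replicate 1, and the summed levels were 137 to 192 CPM untreated and 270 to 313 CPM with both agents. Over all untreated libraries, 29.5% of all genes rose and 28.6% fell in that comparison.

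The messages of lactate dehydrogenase shifted from Ldhb towards Ldha under LPS. Ldha, the subunit that favours making lactate from pyruvate, was at 729, 583 and 535 CPM in untreated glia and 908, 944 and 936 CPM with LPS. Ldhb, the subunit that favours the reverse step, was at 1133, 779 and 724 CPM and 464, 445 and 446 CPM. Neither gene's groups overlapped, and the library labelled untreated replicate 1 was the highest untreated one for both. LPS raised Ldha by 0.59 (SE 0.12, adjusted p = 0.0008, 0.74 without untreated replicate 1). The change of Ldhb was -0.96 (SE 0.15, adjusted p = 9.2e-05, -0.73 without untreated replicate 1). Ldha went from 23.4%, 26.2% and 26% of the summed FPKM of the pair in the untreated replicates to 48.1%, 50.1% and 49.9% with LPS and 44.5%, 49.4% and 47% with LPS and IFN-gamma. The shares of the untreated replicates lay close together, that of the library that stood apart included. IFN-gamma added to LPS gave 0.01 (SE 0.12, adjusted p = 0.97) for Ldha and 0.15 (SE 0.15, adjusted p = 0.45) for Ldhb, and neither passed.

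Both monocarboxylate transporters rose with LPS. Slc16a3 encodes MCT4, the low-affinity exporter of lactate from glycolytic cells and a known HIF-1 target. Its level was 11.9, 12.5 and 13.6 CPM in untreated glia, 85.1, 78.4 and 85.1 CPM with LPS and 103, 105 and 87.3 CPM with LPS and IFN-gamma. Every treated library was far above the highest untreated one. The increase with LPS, 2.71 (SE 0.13, adjusted p = 8.6e-11, 2.67 without untreated replicate 1), was the greatest log2 fold change among the 37 members in that comparison. IFN-gamma added to LPS gave 0.25 (SE 0.12, adjusted p = 0.13). Slc16a1 encodes MCT1, which carries lactate and ketone bodies in either direction, and was at 338, 398 and 406 CPM, 753, 757 and 781 CPM and 691, 698 and 720 CPM. LPS raised it by 1.00 (SE 0.08, adjusted p = 2.3e-08, 0.93 without untreated replicate 1), with untreated libraries all below treated ones. Per length Slc16a1 remained the major one of the pair, and Slc16a3 made up 2.7% ± 0.145 of their summed FPKM untreated, 8.29% ± 0.329 with LPS and 10.4% ± 1.08 with both agents.

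**Figure D3:**
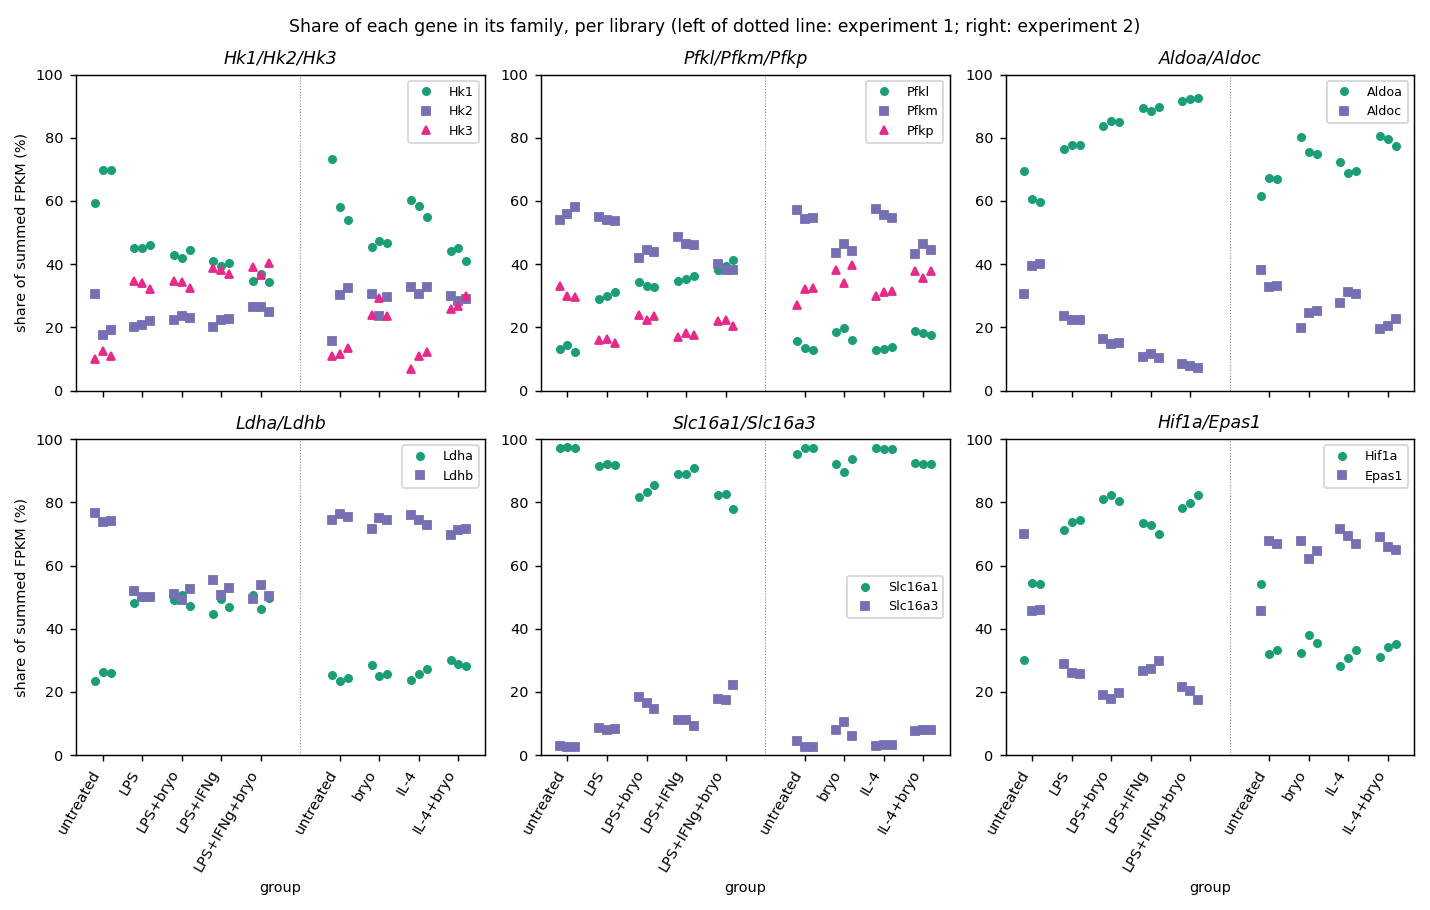
Share of each gene in the summed FPKM of its family, in percent, for every library of the 9 groups, with experiment 1 left of the dotted line in each panel. Ldha and Ldhb meet near equal shares in all groups with LPS, and Aldoc shrinks stepwise across experiment 1. The Hk3 share is larger and the Hk1 share smaller with LPS than in untreated glia, and with bryostatin where no LPS was given. Bryostatin added to LPS left the mean Hk3 share at 33.9% against 33.6%, and added to LPS and IFN-gamma at 38.8% against 38%. A smaller share is not a lower level: mean Hk1 was 164 CPM in untreated glia of experiment 1 and 188 CPM with LPS.

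The pyruvate dehydrogenase kinases, which keep pyruvate out of the citric acid cycle, parted. Pdk1, a known HIF-1 target, was at 48.6, 59.5 and 58.7 CPM untreated, 48.8, 52.8 and 58.4 CPM with LPS and 61.3, 73.7 and 71.1 CPM with LPS and IFN-gamma. LPS gave -0.06 (SE 0.10, adjusted p = 0.68, -0.15 without untreated replicate 1), and adding IFN-gamma raised it by 0.37 (SE 0.11, adjusted p = 0.013), a call lost in 2 of 12 other settings. Pdk4, the kinase induced by fasting and fatty acids, was at 62.2, 44.5 and 47.2 CPM, 23.6, 18.4 and 20.5 CPM and 13.6, 18.5 and 17.1 CPM. All untreated libraries were above all treated ones. Its change with LPS was -1.30 (SE 0.16, adjusted p = 7.2e-06, -1.14 without untreated replicate 1), and with LPS and IFN-gamma -1.64 (SE 0.16, adjusted p = 3.4e-07, -1.48 without untreated replicate 1).

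Hif1a, the inducible alpha subunit of HIF-1, rose at the RNA level. It was at 105, 89.6 and 106 CPM in untreated glia, 300, 313 and 323 CPM with LPS and 343, 401 and 430 CPM with LPS and IFN-gamma. The untreated libraries were all lower than the treated ones, by 1.64 (SE 0.10, adjusted p = 8.1e-10, 1.67 without untreated replicate 1) on the log2 scale against LPS. IFN-gamma added 0.33 (SE 0.09, adjusted p = 0.012), a call lost in 3 of 12 other settings. Epas1 encodes HIF-2 alpha, known from endothelium and also made by astrocytes, and was at 110, 99.6 and 101 CPM with LPS. The difference from untreated glia changed sign with 1 library: it was -0.25 (SE 0.33, adjusted p = 0.59) over all untreated libraries and 0.48 (adjusted p = 0.02) without the one labelled replicate 1. In the comparison of LPS and IFN-gamma with untreated glia it was 0.15 (SE 0.33, adjusted p = 0.71, 0.89 without untreated replicate 1). Hif1a made up 30%, 54.5% and 54.1% of the summed FPKM of the pair in the untreated replicates of experiment 1, 54.3%, 32.1% and 33.3% in those of experiment 2, and 73.1% ± 1.72 with LPS. The 2 libraries labelled replicate 1 again sat with the other experiment. These values are of RNA, and HIF-1 alpha is mainly controlled as a protein.

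The prolyl hydroxylases that mark HIF alpha subunits for destruction rose when IFN-gamma was added to LPS and did not pass the test with LPS alone. Egln1 (PHD2), the main oxygen sensor, was at 121, 109 and 104 CPM untreated, 102, 108 and 101 CPM with LPS and 146, 139 and 132 CPM with LPS and IFN-gamma. Egln3 (PHD3), a feedback gene induced by HIF, was at 51.9, 57.9 and 55.6 CPM, 56.8, 54.7 and 54.8 CPM and 94.4, 98.8 and 98.3 CPM. For both, the libraries with IFN-gamma were above the other 6. LPS alone gave -0.10 (SE 0.07, adjusted p = 0.29, -0.04 without untreated replicate 1) for Egln1 and 0.01 (SE 0.08, adjusted p = 0.95, -0.03 without untreated replicate 1) for Egln3, while IFN-gamma added to LPS raised them by 0.43 (SE 0.07, adjusted p = 0.00027) and 0.81 (SE 0.08, adjusted p = 1e-06).

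Of the other 7 hypoxia-inducible genes, 4 rose and 1 fell with LPS, and 5 rose and 1 fell with LPS and IFN-gamma. When IFN-gamma was added to LPS, 5 rose. Over all genes tested, 38.4%, 58.1% and 36.0% were called in the same order. Bnip3, a mitophagy receptor, was at 38.1, 46.3 and 43.8 CPM untreated, 64, 71.4 and 67 CPM with LPS and 134, 151 and 151 CPM with LPS and IFN-gamma. The groups were fully separate, with steps of 0.66 (SE 0.11, adjusted p = 0.00023, 0.59 without untreated replicate 1) and then 1.11 (SE 0.11, adjusted p = 1.3e-06). Vegfa, the growth factor of blood vessels, was at 65.3, 61.3 and 46.7 CPM, 82.9, 89.6 and 89 CPM and 199, 208 and 233 CPM. Its steps were 0.59 (SE 0.12, adjusted p = 0.00067, 0.69 without untreated replicate 1) for LPS and 1.29 (SE 0.12, adjusted p = 3.1e-07) for IFN-gamma. Adm encodes adrenomedullin, a peptide that widens vessels, and went from 13.2, 12.8 and 14.4 CPM to 48.3, 54.1 and 49 CPM and 80.6, 79.2 and 92 CPM. Most of its increase came with LPS, at 1.90 (SE 0.12, adjusted p = 1.3e-09, 1.89 without untreated replicate 1), and IFN-gamma added 0.73 (SE 0.11, adjusted p = 6.2e-05).

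P4ha1, the collagen prolyl hydroxylase subunit, rose by 0.49 (SE 0.11, adjusted p = 0.0016, 0.65 without untreated replicate 1) with LPS and by a further 0.40 (SE 0.11, adjusted p = 0.0075) with IFN-gamma. Of the 7 tested markers of meningeal fibroblasts, the collagen-making cells of such cultures, 5 rose with LPS, and 4 fell when IFN-gamma was added. Of all genes, 19.5% rose with LPS and 16.8% fell when IFN-gamma was added. Ndrg1, a stress gene also high in myelinating cells, was at 509, 403 and 358 CPM untreated, 474, 444 and 448 CPM with LPS and 669, 651 and 676 CPM with LPS and IFN-gamma. The libraries with IFN-gamma were higher than all others, and the step from LPS was 0.55 (SE 0.11, adjusted p = 0.00093). Mxi1, an antagonist of MYC, was at 47.7, 74.7 and 78.3 CPM, 52.8, 51.9 and 53.6 CPM and 54.3, 50.7 and 55.3 CPM. Its difference with LPS, -0.34 (SE 0.13, adjusted p = 0.049, -0.53 without untreated replicate 1), was lost in 8 of 13 other settings. Ankrd37 stayed between 0.114 and 2.29 CPM in all 27 libraries, close to the 0.105 to 0.174 CPM that 3 counts make, and passed in none of the comparisons, with 0.87 (SE 0.39, adjusted p = 0.064, 1.12 without untreated replicate 1) for LPS and IFN-gamma against untreated glia. Ufsp2 and Lrp2bp overlap it on the opposite strand with many more counts, so its reads cannot be told apart from theirs.

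Bryostatin moved few of the genes. Added to LPS it changed 7 of 37 (18.9%), with 3 higher and 4 lower, where 6.89% of all genes were called (3.35% higher and 3.55% lower). Added to LPS and IFN-gamma it changed 2 (5.41%), both lower, where 3.38% of all genes were called (1.80% higher and 1.58% lower). Bryostatin alone changed 4 (10.8%), with 2 higher and 2 lower, against 3.62% of all genes (2.11% and 1.51%). With IL-4 it changed 5 (13.5%), with 3 higher and 2 lower, against 4.13% (2.70% and 1.42%). In the same order, 13, 11, 13 and 14 members had an unadjusted p under 0.05 in edgeR's test. Over all genes these were 3099 and 2447 of 16073 in experiment 1, and 2947 and 2578 of 15604 in experiment 2. In all, 26 members were called in none of the 4 settings, 6 in 1, 4 in 2 and 1, Slc16a1, in all 4. Without untreated replicate 1, 4 members were again called for bryostatin alone, 3 of them shared. These counts moved with the test. Bryostatin alone gave 12 calls by DESeq2 and 0 with only its 2 groups in the fit, and LPS with bryostatin gave 17 with only its 2 groups. Some astrocyte markers fell in every setting. Of 12, 5 were lower and 1 higher with LPS, and 6 lower and 0 higher with LPS and IFN-gamma. With bryostatin alone 7 were lower and 1 higher, and with IL-4 6 were lower and 1 higher. The summed astrocyte level was 7284 to 7531 CPM with LPS and bryostatin and 5014 to 5088 CPM with all 3 agents, and in experiment 2 13225 to 17759 CPM untreated, 8880 to 10842 CPM with bryostatin, 12238 to 13143 CPM with IL-4 and 8791 to 9838 CPM with both. With bryostatin alone, 4 of 12 were lower and 1 higher without untreated replicate 1. Of 14 microglial markers, 7 fell when bryostatin was added to LPS, where their summed level was 1314 to 1480 CPM against 1806 to 1928 CPM, and 3 fell with LPS and IFN-gamma, at 1161 to 1457 CPM against 1459 to 1650 CPM. None of them rose in either setting by edgeR or DESeq2, or had a higher value at an unadjusted p under 0.05.

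Slc16a1, the MCT1 transporter, fell with bryostatin in each setting. With LPS its level went from 753, 757 and 781 CPM to 374, 382 and 404 CPM, with LPS and IFN-gamma from 691, 698 and 720 CPM to 426, 399 and 427 CPM. In experiment 2 it was at 430, 364 and 354 CPM untreated and 278, 278 and 313 CPM with bryostatin, and at 353, 338 and 326 CPM with IL-4 and 256, 252 and 257 CPM with IL-4 and bryostatin. The groups were apart in all 4 settings, and in experiment 1 the bryostatin libraries were near the untreated level of 338, 398 and 406 CPM. The log2 fold changes were -0.98 (SE 0.08, adjusted p = 1.8e-06) with LPS and -0.75 (SE 0.08, adjusted p = 3.7e-05) with LPS and IFN-gamma. In experiment 2 they were -0.40 (SE 0.10, adjusted p = 0.045, -0.33 without untreated replicate 1) for bryostatin alone and -0.41 (SE 0.10, adjusted p = 0.038) with IL-4. Both calls of experiment 1 held in each of 12 other settings, whereas those of experiment 2 were lost in 9 of 13 and 8 of 12. Without untreated replicate 1 the change with bryostatin alone had an adjusted p of 0.069.

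Slc2a1 fell with bryostatin in experiment 2. It was at 122, 131 and 125 CPM untreated and 79, 87.2 and 80 CPM with bryostatin, and at 125, 128 and 129 CPM with IL-4 and 78.9, 82.5 and 79.1 CPM with IL-4 and bryostatin. No bryostatin library reached the lowest library without it, and the changes were -0.62 (SE 0.08, adjusted p = 0.0024, -0.66 without untreated replicate 1) and -0.67 (SE 0.08, adjusted p = 0.0016). In experiment 1 bryostatin gave 0.13 (SE 0.09, adjusted p = 0.52) with LPS and 0.23 (SE 0.09, adjusted p = 0.22) with LPS and IFN-gamma, with 95% intervals of -0.06 to 0.31 and 0.05 to 0.41. Hk3, the myeloid hexokinase, rose in the same 2 settings. Its level went from 11.9, 16.4 and 19 CPM untreated to 46.8, 56 and 44.2 CPM with bryostatin, and from 8.78, 15 and 16.8 CPM with IL-4 to 51.6, 52.4 and 60.8 CPM with both. Each bryostatin library was far above the highest library of its control group. The increases were 1.64 (SE 0.23, adjusted p = 0.0035, 1.45 without untreated replicate 1) and 2.03 (SE 0.23, adjusted p = 0.0015), and with LPS and with LPS and IFN-gamma the values were 0.23 (SE 0.09, adjusted p = 0.16) and 0.15 (SE 0.09, adjusted p = 0.47). Of 14 microglial markers, 0 were called with bryostatin alone by edgeR and 0 by DESeq2, with 2 at an unadjusted p under 0.05, and 1 rose and 1 fell with IL-4 and bryostatin. In that setting 6 were higher and 1 lower at an unadjusted p under 0.05, DESeq2 called 3 higher and 1 lower, and the median log2 fold change was 0.42. Their summed level was 2768 to 3438 CPM untreated, 2632 to 3995 CPM with bryostatin, 2342 to 3331 CPM with IL-4 and 3276 to 4127 CPM with both. Without bryostatin replicate 2, the library that stood apart, bryostatin alone gave -0.66 (adjusted p = 0.004) for Slc2a1 and 1.53 (adjusted p = 0.012) for Hk3, and Slc16a1 lost its call, at -0.36 (adjusted p = 0.068). Whether bryostatin's effect on Slc2a1 or Hk3 differed between the experiments was not tested.

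**Figure D4:**
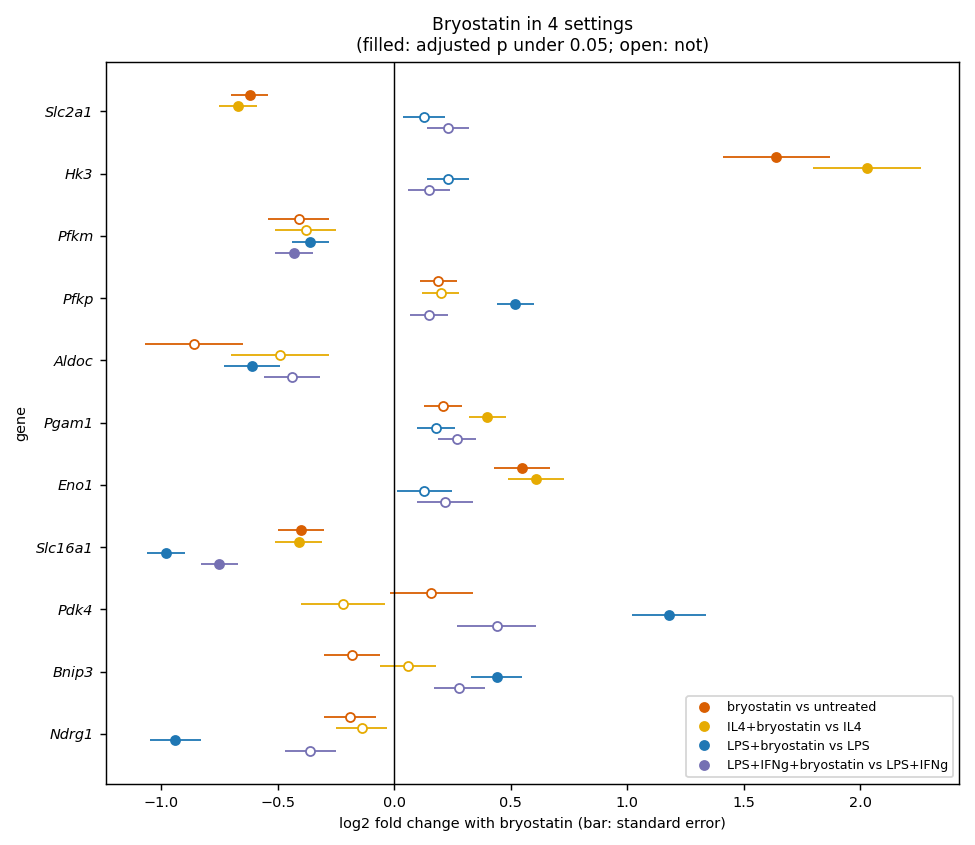
Log2 fold change with bryostatin, with its standard error, for the 11 genes called in at least 1 of 4 settings (colours). Filled points passed an adjusted p of 0.05: Slc16a1 is left of 0 and filled in all 4 settings, Slc2a1 and Hk3 only in the 2 of experiment 2, and Pdk4 and Ndrg1 only with LPS.

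The other calls with bryostatin were spread over the pathway. With LPS, Ndrg1 went from 474, 444 and 448 CPM to 238, 226 and 248 CPM and Pdk4 from 23.6, 18.4 and 20.5 CPM to 45.1, 55.4 and 40.8 CPM, both without overlap, with changes of -0.94 (SE 0.11, adjusted p = 6.4e-05) and 1.18 (SE 0.16, adjusted p = 0.00027). The Pdk4 libraries with LPS and bryostatin were close to the untreated level. With LPS and IFN-gamma, bryostatin gave -0.36 for Ndrg1 and 0.44 for Pdk4, of the same sign and not called in the main test. DESeq2 called Ndrg1 there (adjusted p = 0.036). Pfkp, which LPS had lowered, rose by 0.52 (SE 0.08, adjusted p = 0.00062), and Bnip3 by 0.44 (SE 0.11, adjusted p = 0.027), the latter a call lost in 5 of 12 other settings. Aldoc, already lower with LPS, was -0.61 (SE 0.12, adjusted p = 0.0044) on the log2 scale, and its share of the aldolases' summed FPKM went to 15.3% ± 0.871 with LPS and bryostatin and 7.81% ± 0.51 with all 3 agents. Pfkm was the other gene called with LPS, at -0.36 (SE 0.08, adjusted p = 0.01), and with LPS and IFN-gamma, at -0.43 (SE 0.08, adjusted p = 0.0071). In experiment 2, Eno1 rose by 0.55 (SE 0.12, adjusted p = 0.034, 0.56 without untreated replicate 1) with bryostatin alone and by 0.61 (SE 0.12, adjusted p = 0.019) with IL-4, and Pgam1 by 0.40 (SE 0.08, adjusted p = 0.022) with IL-4. Without bryostatin replicate 2 the Eno1 change with bryostatin alone was 0.42 (adjusted p = 0.053). The Eno1 and Pgam1 calls with IL-4 were lost when any of the 6 libraries was left out.

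Some values with bryostatin were sizeable without passing in the main test. Slc16a3 was at 24.6, 12 and 11.9 CPM untreated and 28.7, 38.9 and 24.7 CPM with bryostatin, and at 12.5, 13.5 and 12.6 CPM with IL-4 and 25.2, 26.1 and 26.8 CPM with both. The first pair of groups nearly touched, through the library labelled untreated replicate 1, and the second pair was fully apart. The differences were 0.92 (SE 0.26, adjusted p = 0.075, 1.34 without untreated replicate 1) and 1.01 (SE 0.26, adjusted p = 0.052). The first was called without untreated replicate 1 (adjusted p = 0.002) and by DESeq2 (adjusted p = 0.0084). The second was called in 5 other settings, DESeq2 among them (adjusted p = 0.0036). Aldoc, called lower with LPS, was at -0.86 with bryostatin alone, -0.49 with IL-4 and -0.44 with LPS and IFN-gamma. With bryostatin alone it was called in 6 other settings, DESeq2 among them (adjusted p = 0.0036), but not without untreated replicate 1. With IL-4 it was called in 1, only the compared groups in the edgeR fit (adjusted p = 0.004). With LPS and IFN-gamma it was called in 3, DESeq2 among them (adjusted p = 0.017). Epas1 had -0.65 (SE 0.34, adjusted p = 0.33) with LPS and -0.82 (SE 0.34, adjusted p = 0.25) with LPS and IFN-gamma. With only the compared groups in the edgeR fit both were called, at -0.65 (adjusted p = 5.6e-07) and -0.81 (adjusted p = 0.018). Hif1a stayed near its level without bryostatin, at 0.02 (SE 0.09, adjusted p = 0.94) and -0.18 (SE 0.09, adjusted p = 0.39), with 95% intervals of -0.16 to 0.20 and -0.36 to 0.00.

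The difference of bryostatin's effect between LPS with IFN-gamma and LPS alone was tested as an interaction. No member was called, where 0.118% of all genes were (0.0684% higher and 0.0498% lower), with 5 members at an unadjusted p under 0.05 and 1 call by DESeq2. The lowest adjusted p was 0.29, for Ndrg1. For the difference of bryostatin's effect with IL-4 and without it, no member was called either, at 0.00% of all genes, with 0 at an unadjusted p under 0.05, 0 calls by DESeq2 and a lowest adjusted p of 0.94, for Slc2a3.

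IL-4, a cytokine of alternative activation, called 1 of the 37 genes, where 0.583% of all genes were called (0.500% higher and 0.0833% lower). The median log2 fold change was -0.17 for the members (-0.07 without untreated replicate 1) and -0.03 for all genes. The gene was Pfkfb4, at 15.1, 14.6 and 14.9 CPM untreated and 23.3, 23.1 and 22.2 CPM with IL-4, with no overlap and a change of 0.62 (SE 0.09, adjusted p = 0.0081, 0.63 without untreated replicate 1). The call was lost without IL-4 replicate 2, without untreated replicate 2, or with only the 2 groups in the fit, while its size stayed between 0.61 and 0.64. Hif1a gave 0.15 (SE 0.16, adjusted p = 0.61, 0.01 without untreated replicate 1) and Slc2a1 0.01 (SE 0.08, adjusted p = 0.92, -0.01 without untreated replicate 1), with 95% intervals of -0.17 to 0.46 and -0.14 to 0.17. Without untreated replicate 1 the same single gene was called.

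Other genes of the pathway, from lists of known members, were set beside the 37. Like the 37, these lists were chosen with earlier results of these data known. Among 35 tested genes of glycolysis, pyruvate and glycogen beyond them, 6 rose and 16 fell with LPS. With LPS and IFN-gamma 9 rose and 16 fell, and when IFN-gamma was added to LPS 9 rose and 7 fell. In the same order 62.9%, 71.4% and 45.7% of them were called, against 38.4%, 58.1% and 36.0% of all genes. The median log2 fold changes of the list were -0.37, -0.27 and 0.01, against 0.24, 0.82 and 0.40 for the 37 members. Leaving out untreated replicate 1, 6 rose and 16 fell with LPS and 9 rose and 17 fell with LPS and IFN-gamma, with medians of -0.33 and -0.24. Slc2a6, a lysosomal sugar transporter of macrophages, changed by 2.56 (SE 0.15, adjusted p = 5.5e-10, 2.78 without untreated replicate 1) with LPS and by 1.64 (SE 0.13, adjusted p = 6.6e-08) with IFN-gamma added. Of 35 further hypoxia-inducible genes, 19 rose and 4 fell with LPS and 25 rose and 2 fell with LPS and IFN-gamma. These were 65.7% and 77.1% of the list, against 38.4% and 58.1% of all genes. Without untreated replicate 1, 16 rose and 4 fell with LPS and 24 rose and 2 fell with LPS and IFN-gamma. Angptl4, a lipase inhibitor, rose by 4.17 (SE 0.13, adjusted p = 3.8e-13, 3.99 without untreated replicate 1) with LPS. Hmox1, the heme oxygenase, which oxidative stress also induces, rose by 4.13 (SE 0.32, adjusted p = 2.7e-07) when IFN-gamma was added.

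Of 11 further regulators of HIF, 5 rose and 2 fell with LPS, and 6 rose and the other 5 were not called with LPS and IFN-gamma. The 54.5% called in the second comparison was below the 58.1% of all genes. Cited2, which competes with HIF for its coactivator, rose by 0.77 (SE 0.07, adjusted p = 4e-07, 0.84 without untreated replicate 1) with LPS. Vhl, the ubiquitin ligase subunit that destroys HIF alpha, was -0.53 (SE 0.11, adjusted p = 0.03, -0.39 without untreated replicate 1) on the log2 scale with bryostatin alone. It was the 1 regulator called there, 9.09% of the list against 3.62% of all genes. Added to LPS, bryostatin gave -0.31 (SE 0.09, adjusted p = 0.05 when rounded) for Vhl and 0.33 (SE 0.07, adjusted p = 0.011) for Cited2. These were 18.2% of the list against 6.89% of all genes, and none was called in the other 2 bryostatin settings. Of 10 genes of the pentose phosphate pathway, which branches off after hexokinase, 3 rose and 3 fell with LPS, and 5 rose and 1 fell with LPS and IFN-gamma, each 60% called, against 38.4% and 58.1% of all genes. Pgd and Taldo1 rose by 1.32 (SE 0.13, adjusted p = 8e-07) and 1.14 (SE 0.11, adjusted p = 1.1e-06) when IFN-gamma was added. Of 22 genes of the citric acid cycle, which lies downstream of pyruvate, 14 fell with LPS and the other 8 were not called, and 1 rose and 16 fell with LPS and IFN-gamma. Suclg2, a subunit of succinyl-CoA synthetase, was -0.75 (SE 0.07, adjusted p = 3.9e-07, -0.71 without untreated replicate 1) with LPS, and Pcx, the pyruvate carboxylase of astrocytes, -0.63 (SE 0.14, adjusted p = 0.0016, -0.44 without untreated replicate 1). Among all genes tested, 19.5% rose and 18.8% fell with LPS, and 29.5% and 28.6% with LPS and IFN-gamma. Without untreated replicate 1, 4 regulators of HIF rose and 1 fell with LPS and 5 rose with LPS and IFN-gamma, 5 and 5 pentose phosphate genes rose and 2 and 1 fell, and 14 and 13 citric acid cycle genes fell. With bryostatin, edgeR called 0 of 10 pentose phosphate genes in each of the 4 settings, and DESeq2 called 1, with IL-4, where 3 had an unadjusted p under 0.05. Of 22 citric acid cycle genes, Pcx, at -0.82 (SE 0.14, adjusted p = 0.0016), and Aco1, at -0.25 (SE 0.07, adjusted p = 0.032), fell when bryostatin was added to LPS, a share of 9.09% where 6.89% of all genes were called. With LPS and IFN-gamma Aco1 was called lower, at -0.28 (SE 0.07, adjusted p = 0.032), with IL-4 Pcx, at -0.51 (SE 0.12, adjusted p = 0.038), and with bryostatin alone 0 of 22 were called by edgeR and 0 by DESeq2, with 2 lower and 1 higher at an unadjusted p under 0.05.

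Read per length in untreated glia of experiment 1, the members spanned from 579 ± 138 FPKM for Ldhb to 0.548 ± 0.306 FPKM for Ankrd37. Gapdh at 410 ± 43.4 FPKM and Aldoa at 374 ± 32.1 FPKM followed Ldhb, and for each neighbouring pair of the 3 the ranges of mean ± SD overlapped. Of the genes that rose most with LPS, Slc16a3 started at 2.46 ± 0.191 FPKM, Hk3 at 3.35 ± 0.341 FPKM, Adm at 8.63 ± 0.571 FPKM, Pfkfb3 at 15 ± 0.749 FPKM and Hif1a at 17.6 ± 1.57 FPKM. Pkm went from 237 ± 30 FPKM to 485 ± 33.4 FPKM with LPS and IFN-gamma, and Gapdh to 592 ± 44.6 FPKM. Adm was at 53.2 ± 4.62 FPKM with both agents.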

How the data were processed

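RNA from mixed glia was sequenced in 27 libraries of 9 groups, taken from the labels. The submitters' processing notes name fastp, STAR and featureCounts as tools and mm10 as the build. Tool versions are not given in the sources used here. Libraries were polyadenylated and unstranded, per the labels' protocols. The authors deposited raw counts per gene, whole numbers with no normalization, and these were tested. The authors also deposited FPKM values, used here only for levels per length and for shares within a family.

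The main test was edgeR's quasi-likelihood F test (edgeR 4.0.16 in R 4.3.3, robust fit), after filterByExpr on the groups and TMM scaling, with files read by the package data.table, version 1.17.8. Each experiment was fitted apart with all its groups, and p-values were adjusted by Benjamini-Hochberg over all genes, 16073 in experiment 1 and 15604 in experiment 2. Calls were made where the adjusted p was under 0.05. The steps were tested on simulated data. Comparisons were 8 of group pairs and 2 of differences of bryostatin's effects. Total counts ran from 17230058 to 28687281, and 3 counts in a library equal 0.105 to 0.174 CPM. Aldoa has a pair of gene IDs, and the one with 19055 to 33610 counts per library stands for it, the other having 7 to 27. Named pseudogene copies held at most 1.04% of a member's counts. Intervals are 95% intervals of the fit.

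All members may be named. From each other pathway list the rule names up to 2 genes per comparison, those with the largest called change and at least 5 CPM, and some are left out for length, and another is not reported here. The members and lists were chosen with earlier results of these data known. The alternatives run were edgeR with DESeq2's size factors, DESeq2 1.42.0 itself, a fit of unfiltered genes, a fit of the 2 compared groups, a joint fit of all 27 libraries, a replicate block, the omission of each library in turn, and the omission of both untreated libraries labelled replicate 1.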

Additional observations from a re-analysis of the deposited data

How the results depend on the processing

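Of the calls on members, 20 of 23 for LPS, 31 of 35 for LPS and IFN-gamma against untreated, 18 of 24 for IFN-gamma added to LPS, 5 of 7 for bryostatin with LPS and 2 of 2 with LPS and IFN-gamma were kept in every alternative run. Of those in experiment 2, none of the 4 for bryostatin and none of the 1 for IL-4 held in every alternative, and 2 of the 5 for bryostatin with IL-4 did. With only the compared groups in the fit, 17 members were called for bryostatin with LPS, 5 with LPS and IFN-gamma, 0 for bryostatin alone, 0 for IL-4, 14 for bryostatin with IL-4, and 2 for the difference of bryostatin's effect between LPS with IFN-gamma and LPS. DESeq2 called 5 for bryostatin with LPS and IFN-gamma, 12 for bryostatin alone, 10 with IL-4, and 1 for that difference. Without the filter on low counts, 4 were called for bryostatin with LPS and IFN-gamma and 1 for that difference. With all 27 libraries in 1 fit, 9 were called for bryostatin alone and 10 with IL-4. The cause of these shifts was not tested.

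Leaving out each library in turn gave 20 to 28 calls for LPS, 32 to 36 for LPS and IFN-gamma, 20 to 23 for IFN-gamma added to LPS, 5 to 6 for bryostatin with LPS, 2 to 2 with LPS and IFN-gamma, 2 to 4 for bryostatin alone, 0 to 1 for IL-4, 2 to 2 for bryostatin with IL-4, and 0 to 0 for both differences. The count for bryostatin alone was 2 without bryostatin replicate 1 or untreated replicate 2, and that for IL-4 was 0 without IL-4 replicate 2 or untreated replicate 2. For Epas1, LPS against untreated turned from -0.25 to 0.48 without untreated replicate 1, and to 0.48 without both untreated libraries labelled replicate 1, with a range of -0.55 to 0.48 over single libraries left out.

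Replicate numbers did not visibly pair the libraries. Over pairs with the same number the correlation of deviations ran from -0.276 to 0.3 in experiment 1, with 3 of 30 over 0.1. In experiment 2 it ran from -0.504 to 0.534, with 6 of 18 over 0.1. Over pairs with different numbers, 5 of 60 and 10 of 36 were over 0.1. The medians for same and different numbers were 0.00332 and -0.00213 in experiment 1, and 0.0444 and -0.00756 in experiment 2. With a replicate block, 365 of the members' results stayed on their side of the threshold, 4 lost their call and 1 gained one, and none changed sign. The block gave 22 calls for LPS, 3 for bryostatin alone, 4 for bryostatin with IL-4, and the same counts as without it for the other comparisons. Depth limits mainly Ankrd37, at 0.114 to 2.29 CPM.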
